A study of Mus musculus with 2 samples.

Results

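The genes described here encode the machinery that breaks down fatty acids in mitochondria and peroxisomes, forms ketone bodies, and switches this program on. They were chosen as 35 named genes of fatty acid oxidation and ketogenesis, and a gene was read from the probe sets that the platform annotation assigns to it alone. Of the 35 listed genes, 34 had such a probe set, out of 18193 genes on the array, and together they had 62 probe sets. Acsl1, an acyl-CoA synthetase, had none and was not analysed here. The arrays came from E14.5 mouse embryo liver, 1 of the genotype Prox1 f/f;Foxa3Cre and 1 wild-type, both of the strain NMRI/C57Bl6. In Prox1 f/f;Foxa3Cre embryos a Cre recombinase under control of Foxa3, an endoderm gene, recombines floxed alleles of Prox1, a homeodomain transcription factor of liver progenitors. Cells of blood, vessel and mesenchyme origin in this organ are not the intended target of that Cre. The comparison asks how the transcripts of fetal liver differ when Prox1 is deleted. Whether an RNA sample came from 1 embryo or from several is not stated. With 1 array per genotype there is no replicate, no SD and no test, so every difference below is one between 2 RNA samples.

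Fatty acids are activated to acyl-CoA, carried into mitochondria as carnitine esters, and shortened by repeated rounds of dehydrogenation, hydration, dehydrogenation and thiolysis. Very long and branched chains start in peroxisomes, and in liver part of the acetyl-CoA leaves as ketone bodies. The nuclear receptor Ppara, bound to DNA with a retinoid X receptor, is the main transcriptional activator of this program in hepatocytes, whose oxidative capacity rises around birth.

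RefSeq promoter windows of the build GRCm38.p6, each running from 250 bases before to 50 bases after an annotated start, were found for 30 of the 34 genes, 33 windows in all because 3 genes have a pair of listed starts. The upstream 250 bases of the members that were at least 2-fold lower in the knockout are shown, because these are the members whose values stand farthest from the rest. They lie at chr9:119157094-119157343 on the minus strand for Acaa1b, chr2:126552774-126553023 on the plus strand for Slc27a2, chr16:31422047-31422296 on the plus strand for Bdh1 (the more upstream of its listed starts), and chr16:21787835-21788084 on the minus strand for Ehhadh. Capitals mark the GC box GGGCGG and the CCAAT box on either strand.
Acaa1b: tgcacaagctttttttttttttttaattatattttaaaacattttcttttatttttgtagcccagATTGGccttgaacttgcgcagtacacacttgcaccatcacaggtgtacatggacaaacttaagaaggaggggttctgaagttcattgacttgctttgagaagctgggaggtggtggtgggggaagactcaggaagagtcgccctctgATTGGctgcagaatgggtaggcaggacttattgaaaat
Slc27a2: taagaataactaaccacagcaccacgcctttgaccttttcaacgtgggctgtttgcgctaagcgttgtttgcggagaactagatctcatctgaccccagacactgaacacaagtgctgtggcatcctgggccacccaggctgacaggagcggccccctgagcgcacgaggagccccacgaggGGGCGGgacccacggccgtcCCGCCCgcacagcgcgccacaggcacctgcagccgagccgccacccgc
Bdh1: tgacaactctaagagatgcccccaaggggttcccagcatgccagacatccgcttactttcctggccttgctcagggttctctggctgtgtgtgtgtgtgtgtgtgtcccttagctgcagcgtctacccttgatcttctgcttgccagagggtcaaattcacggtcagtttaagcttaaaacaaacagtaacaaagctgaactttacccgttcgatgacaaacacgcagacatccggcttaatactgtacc
Ehhadh: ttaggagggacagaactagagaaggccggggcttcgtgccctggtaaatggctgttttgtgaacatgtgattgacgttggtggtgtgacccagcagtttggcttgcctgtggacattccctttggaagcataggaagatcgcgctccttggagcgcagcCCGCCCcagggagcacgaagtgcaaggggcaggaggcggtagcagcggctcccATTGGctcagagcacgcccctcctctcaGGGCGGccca

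These 4 stretches differ in build. Acaa1b had 2 CCAAT boxes and no GC box in its upstream bases, at a GC content of 41.6%, and Slc27a2 had 2 GC boxes and no CCAAT box, at 64%. Ehhadh held both kinds, 2 GC boxes and 1 CCAAT box, and Bdh1 held neither. Over all 33 member windows, 22 held a GC box (66.7%, against 35.7% of the 32851 windows in the table) and 14 held a CCAAT box (42.4%, against 37.4%). The letters TATAAA were found on either strand in 1 member window, that of Fgf21, or 3.03%, against 13.6% of all windows. Member windows were also richer in GC, with a median of 59.6% in the upstream bases against 52.4% over all windows. Whether base composition alone gives these motif shares was not tested.

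The element bound by Ppara with its partner, a direct repeat with 1 base between its copies (DR1), was searched as AGGTCANAGGTCA on both strands with up to 2 mismatches. It is shown because the receptor's own transcript and those of its textbook targets are measured here. Such a match lay in 3 member windows (9.09%, against 3.86% of all windows), and the single copy AGGTCA in 5 (15.2%, against 16.3%), those of Slc27a2, Acadm, Acadvl, Cpt1a and Creb3l3; the single copy in Creb3l3 overlaps its DR1 match. The matches lie at chr10:81092788-81092800 (209 to 197 bases before the Creb3l3 start), chr9:55512308-55512320 (77 to 65 bases before the Etfa start) and chr9:108662142-108662154 (bases 7 to 19 after the Slc25a20 start). They are written on the strand of the motif, with bases equal to it in capitals.
Creb3l3: AGGggAgAGGTCA
Etfa: AGGgCAaAGGTaA
Slc25a20: AGGTgAaAGGTCg

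All of the genes with such a match read lower in the knockout, as most members did, and a match in letters is not a binding site. The windows are short, and the many known elements outside them were not searched.

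Signals are MAS5 values on a linear scale. For differences, signals below 112.6, which is the larger of the array medians, were raised to that floor and give only a bound. Signals quoted singly or summed over a list are as deposited, without the floor. A gene is represented by its brightest probe set, and differences are log2 values, knockout minus wild type. The array medians were 112.6 in the knockout and 101.1 in wild type. Of 11433 genes above the floor on at least 1 array, 3.27% read higher in the knockout by 2-fold or more, and 2.13% read lower by as much. Prox1 itself read 221.8 in the knockout and 340.3 in wild type on its brightest probe set, a log2 difference of -0.62. Its other probe sets read 111.8 and 66.7 in the knockout, under the floor, and 205.9 and 175.4 in wild type. Whether these probes lie in the floxed part of the gene is not known here. The 3' to 5' signal ratio, a sign of RNA integrity, was 0.757 in the knockout and 0.772 in wild type for Gapdh, and 1.32 and 1.25 for Actb. The arrays also differ in sex-linked genes, with the Y-linked Eif2s3y at 1972 in the knockout and 0.866 in wild type, and Xist at 365.7 and 11467.

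Fatty acid oxidation genes were mostly slightly lower in the Prox1 knockout liver, and a few were much lower. Among the 33 members measured, 4 were at least 2-fold lower, 12.1%, where the share over all measured genes was 2.13%. None of the 33 was at least 2-fold higher, where the share over all genes was 3.27%. The members past 2-fold were Acaa1b, Slc27a2, Bdh1 and Ehhadh, which act in peroxisomes, in fatty acid activation and in ketone body formation. In all, 24 of 33 members (72.7%) had a negative log2 difference, beside 46.1% of all measured genes, among which dim genes leaned upward. The members' median log2 difference was -0.24, with quartiles of -0.50 and 0.04, and the median over all measured genes was 0.03. At 1.5-fold, 6 members were lower (18.2%, beside 5.23% of all genes) and 2 were higher (6.06%, beside 9.91%).

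**Figure D1:**
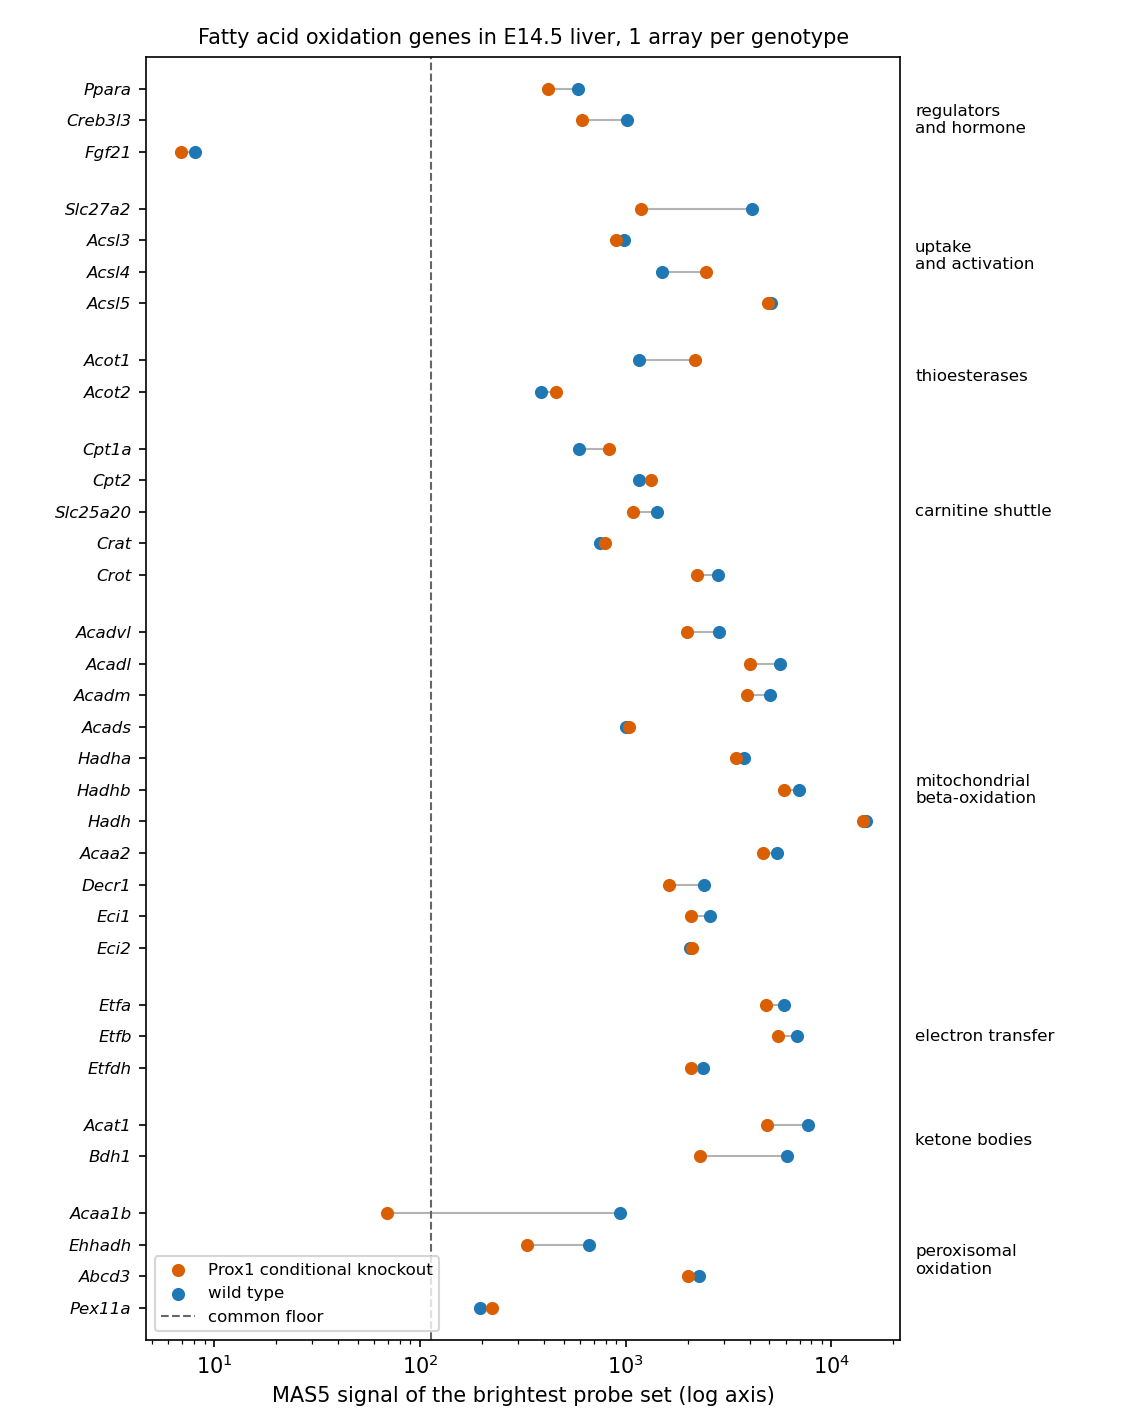
MAS5 signal (log axis) of the brightest probe set of each of the 34 genes with a probe set, grouped by role, with 1 point for the Prox1 conditional knockout array and 1 for the wild-type array; the dashed line is the floor of 112.6. The widest gaps belong to Acaa1b, which falls under the floor in the knockout, Slc27a2 and Bdh1, and Fgf21 lies under the floor on both arrays.

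Spread across genes of like signal gives a scale for these values, although it is not an error between samples. For genes with a mean signal of 1000 to 5000 the log2 differences had a robust SD of 0.23 and the middle 95% ran from -0.70 to 0.75. Between 250 and 1000 they were 0.34 and -1.01 to 1.12, and above 5000 they were 0.15 and -0.78 to 0.47. Class medians were 0.12 below 250, 0.04 from 250 to 1000, -0.03 from 1000 to 5000 and -0.01 above 5000. After a lowess correction for this trend with signal, 24 of 33 members were below 0, beside 49.5% of all measured genes. Within their own signal class, 14 of 33 members lay among the lowest 10% of genes and 2 among the highest 10%.

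**Figure D2:**
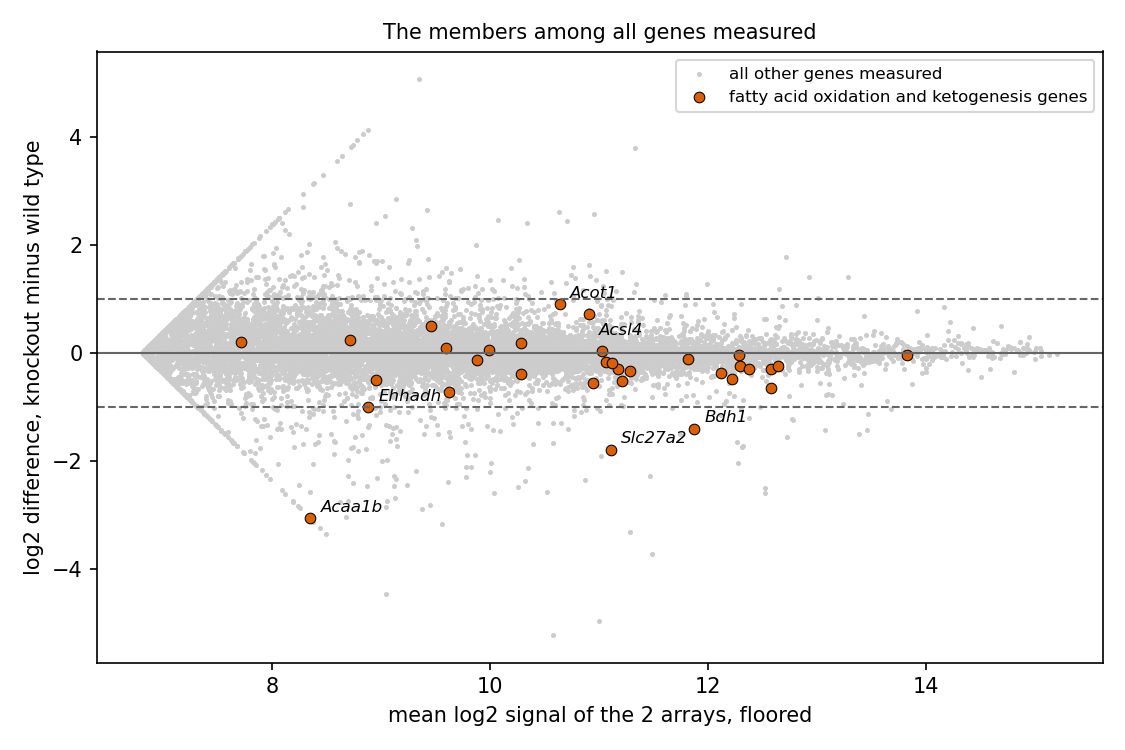
Log2 difference (knockout minus wild type) against the mean log2 signal of the arrays for all measured genes (grey) and the 33 measured members (orange); dashed lines mark 2-fold, and the diagonal edges on the left are genes held at the floor on 1 array. Most members sit just below 0, Acaa1b, Slc27a2, Bdh1 and Ehhadh at or beyond the lower line, and Acot1 and Acsl4 highest.

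Ppara, the receptor that drives the program, read 417.5 in the knockout and 588.9 in wild type, a log2 difference of -0.50. Its other probe sets were lower too, at 308.2 in the knockout and 595.9 in wild type (-0.95), and at 237.1 and 271.7 (-0.20). All 3 probe sets thus read lower in the knockout, but by amounts that ran from barely apart to nearly 2-fold. Creb3l3, a membrane-tethered transcription factor of hepatocytes that acts with Ppara on fasting genes, read 614.4 in the knockout and 1012 in wild type, a log2 difference of -0.72. Fgf21, a liver hormone induced by both, read 6.86 in the knockout and 8.07 in wild type and was below the floor on both arrays, so no difference is given. The measured regulators were therefore lower, and neither passed 2-fold.

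Uptake and activation held the second-largest difference among the members. Slc27a2, a fatty acid transport protein that also activates very long chains, read 1183 in the knockout and 4098 in wild type, 3.46-fold lower at a log2 difference of -1.79. Only 0.442% of genes of like signal had a lower value. The long-chain acyl-CoA synthetases did not follow it. Acsl5, found at the endoplasmic reticulum and mitochondria, was nearly equal at 4904 in the knockout and 5063 in wild type. Acsl3, which serves lipid droplets, read 901.5 and 982.6 on its brightest probe set (-0.12) and 187.3 and 320.1 on another (-0.77). Acsl4, which prefers arachidonate, went the other way, with 2450 in the knockout and 1496 in wild type, a log2 difference of 0.71. Its other probe sets read 791.3 and 530.4 (0.58), and 680.0 and 456.8 (0.57), so all 3 were higher in the knockout. Acsl4 is the 1 member on the X chromosome; whether the difference in sex-linked genes between the arrays has a part in its value was not tested.

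Thioesterases, which split acyl-CoA back to free acids, were both higher. Acot1, the cytosolic enzyme, read 2176 in the knockout and 1165 in wild type, 1.87-fold higher at a log2 difference of 0.90, the highest of all members. Acot2, the mitochondrial enzyme, read 456.8 in the knockout and 386.1 in wild type (0.24), and its second probe set stayed under the floor at 98.7 and 100.6. Acot1 and Acot2 are close sequence copies, so each probe set may also bind the other's RNA, and these values are uncertain to that extent.

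The carnitine shuttle lay in both directions, with 3 of 5 members above 0 and a median of 0.08. Cpt1a, the liver enzyme of the outer mitochondrial membrane that sets the rate of entry, read 833.9 in the knockout and 593.7 in wild type, a log2 difference of 0.49. Another of its probe sets was equal at 171.8 and 168.6 (0.03), and the third read 178.4 in the knockout and lay below the floor at 92.1 in wild type, a bound of 0.66. Cpt1a was thus higher on 2 of 3 probe sets and level on the other. Cpt2, its partner on the inner membrane, read 1327 in the knockout and 1167 in wild type (0.19). Crat, which handles short chains, read 794.0 and 751.0 (0.08), with a dimmer probe set at 440.0 and 303.3 (0.54). In contrast, the carrier between these steps was lower: Slc25a20 read 1090 in the knockout and 1426 in wild type (-0.39), and 548.2 and 834.3 on its other probe set (-0.61). Crot, the peroxisomal transferase for medium chains, read 2227 in the knockout and 2801 in wild type (-0.33). None of the 5 passed 2-fold.

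**Figure D3:**
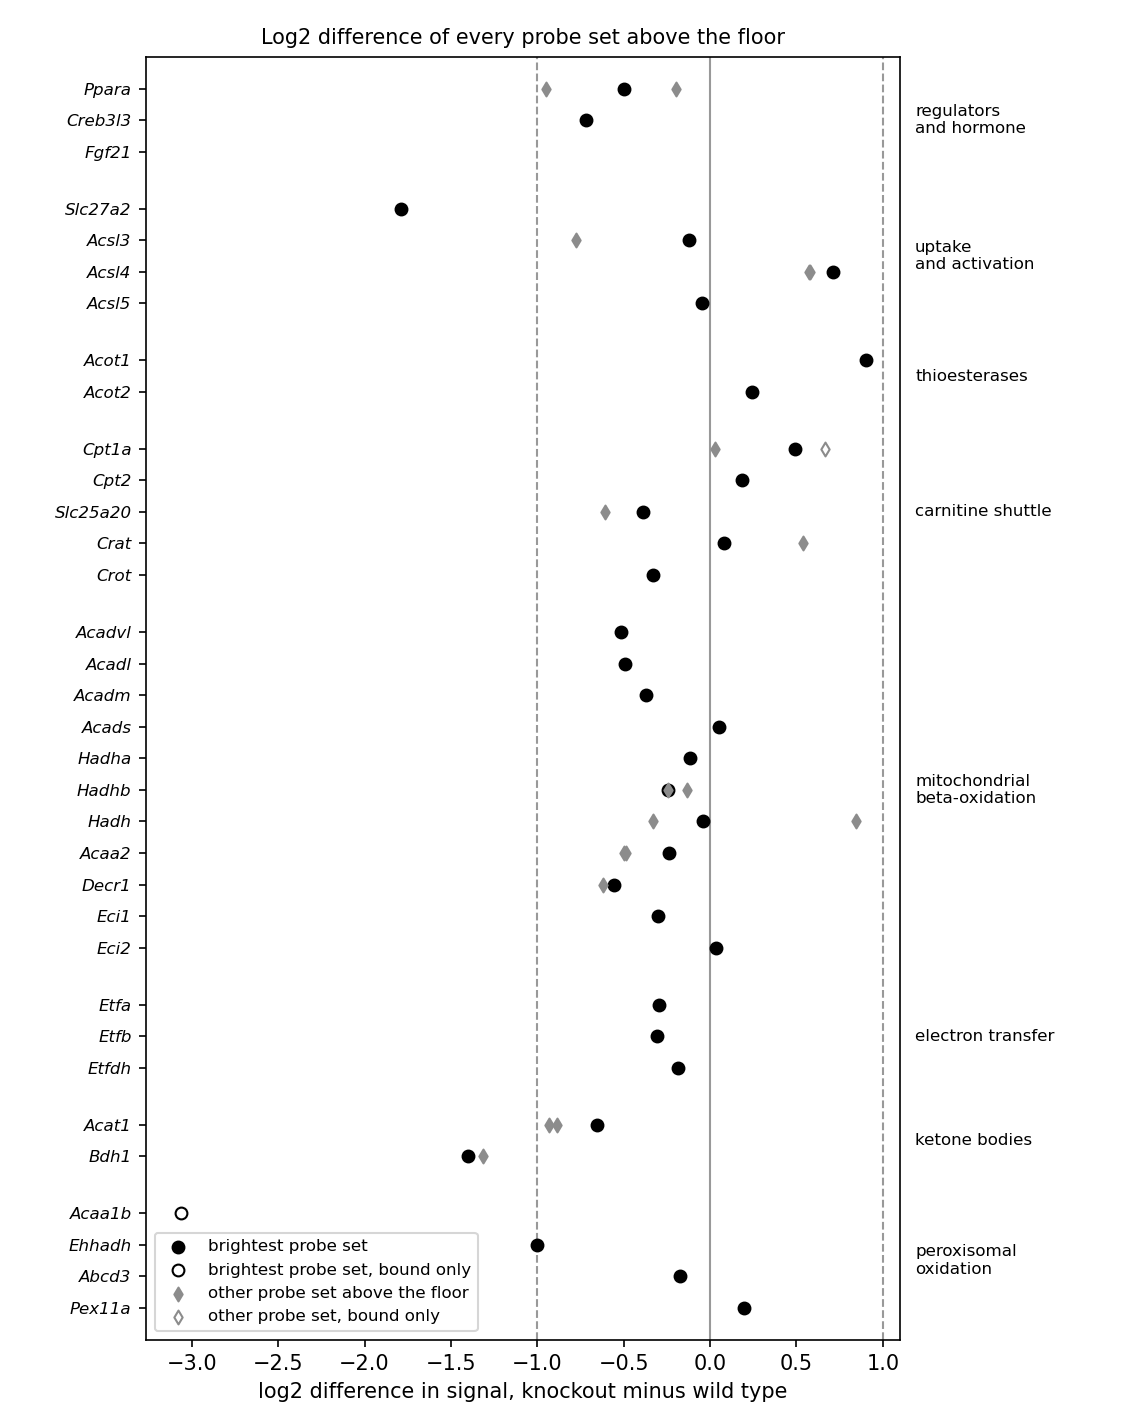
Log2 difference (knockout minus wild type) of every probe set above the floor on at least 1 array for each gene, by role, with the brightest probe set as a circle, others as diamonds and bounds as open symbols; dashed lines mark 2-fold. Ppara, Acat1 and Bdh1 are below 0 and Acsl4 and Cpt1a above 0 on all probe sets shown, and Hadh is split.

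Mitochondrial beta-oxidation enzymes were lower by small amounts, with 9 of 11 below 0, a median of -0.24 and a range from -0.55 to 0.05. The acyl-CoA dehydrogenases open each round and differ in the chain length they prefer. Acadvl, for very long chains, read 1984 in the knockout and 2832 in wild type (-0.51). Acadl, for long chains, read 4025 and 5653 (-0.49), and Acadm, for medium chains, 3903 and 5044 (-0.37). Acads, for short chains, was level at 1038 in the knockout and 1002 in wild type (0.05). Each of the first 3 lay among the lowest 10% of genes of like signal, and Acads did not.

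The trifunctional protein, which carries out the remaining steps on long chains, has its subunits encoded by Hadha and Hadhb. Hadha read 3453 in the knockout and 3751 in wild type (-0.12). Hadhb read 5888 and 6959 on its brightest probe set (-0.24), 5750 and 6803 on the next (-0.24), and 259.1 and 283.7 on a dim one (-0.13). All of these readings were lower in the knockout by at most 1.18-fold on the brightest probe sets. The subunit genes are transcribed away from each other, with 272 bases between their annotated starts, so their promoter windows overlap by 228 bases. The stretch between the starts, chr5:30154981-30155252 in GRCm38.p6, is shown on the plus strand, from the Hadha side to the Hadhb side, because it lies upstream of both subunit genes; capitals mark its 2 GC boxes, and it held 0 CCAAT boxes.
Hadha-Hadhb: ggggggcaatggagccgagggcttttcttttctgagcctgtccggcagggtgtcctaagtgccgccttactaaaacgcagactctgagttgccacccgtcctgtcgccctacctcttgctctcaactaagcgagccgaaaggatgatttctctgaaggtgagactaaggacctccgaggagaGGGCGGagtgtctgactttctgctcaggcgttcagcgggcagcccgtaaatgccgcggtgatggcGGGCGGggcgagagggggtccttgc

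Of the later steps on shorter chains, Hadh, a hydroxyacyl-CoA dehydrogenase, had probe sets that disagreed. Hadh read 14247 in the knockout and 14681 in wild type (-0.04) on the brightest, 5781 and 7268 (-0.33) on the next, and 549.8 and 306.2 (0.84) on the dimmest. It was the 1 exception among the 12 members with several measured probe sets, of which 11 had the same sign throughout. Acaa2, the mitochondrial thiolase, read 4625 in the knockout and 5450 in wild type (-0.24), with its other probe sets at -0.49 and -0.50. Thus the brightest Acaa2 probe set gave the smallest of 3 differences in the same direction. Auxiliary enzymes for unsaturated chains were split. Decr1, a dienoyl-CoA reductase, read 1628 in the knockout and 2389 in wild type (-0.55), the lowest of this group, with its other probe set at -0.62. Eci1, a mitochondrial enoyl-CoA isomerase, read 2085 and 2571 (-0.30), whereas the related Eci2 was level at 2112 and 2060 (0.04).

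Electron transfer flavoprotein takes the electrons from these dehydrogenases. Its subunit genes and that of the enzyme that follows it, 3 in all, were slightly lower. Etfa read 4792 in the knockout and 5887 in wild type (-0.30), and its partner subunit Etfb read 5483 and 6790 (-0.31). Etfdh, which passes the electrons on to ubiquinone, read 2085 in the knockout and 2376 in wild type (-0.19). Etfa and Etfb were nearly alike in size and lay among the lowest 10% of genes of like signal, while 22.4% of genes of like signal were lower than Etfdh.

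Ketone body genes were lower by more than the beta-oxidation enzymes. Bdh1, which interconverts acetoacetate and beta-hydroxybutyrate, read 2303 in the knockout and 6092 in wild type, 2.65-fold lower at a log2 difference of -1.40. Its second probe set read 398.0 in the knockout and 989.3 in wild type, 2.49-fold lower at -1.31. Both Bdh1 probe sets thus gave a difference beyond 2-fold in the same direction. Acat1, the mitochondrial acetoacetyl-CoA thiolase that also acts in isoleucine breakdown, read 4874 in the knockout and 7665 in wild type (-0.65). The other Acat1 probe sets read 3197 and 6108 (-0.93), and 475.5 and 879.8 (-0.89), so Acat1 was between 1.57-fold and 1.91-fold lower.

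Peroxisomal genes held the largest difference and also values near 0. Acaa1b, a rodent peroxisomal thiolase, read 69.0 in the knockout, below the floor, and 942.8 in wild type, so it was at least 8.37-fold lower, with a log2 bound of -3.07. That bound depends on the floor: a floor at the 60th percentile gives at least 4.95-fold, and one at the 30th percentile, which the knockout signal exceeds, gives a ratio of 13.7-fold. Just 0.158% of genes of like signal had a lower value. A near-identical gene, Acaa1a, read 290.9 in the knockout and 374.8 in wild type (-0.37) on its brighter probe set, and 117.5 and 56.5, a bound of 0.06, on a dimmer one. Probe sets of either gene may also bind the other's RNA, which was not tested. Ehhadh, the bifunctional enzyme of the classical Ppara-responsive pathway, read 332.8 in the knockout and 667.2 in wild type, 2.005-fold lower at -1.003. It sits on the 2-fold mark. The nearest members short of that mark were Acot1 at 1.87-fold higher and Creb3l3 at 1.65-fold lower. Abcd3, the transporter for acyl-CoA at the peroxisomal membrane, read 2009 in the knockout and 2263 in wild type (-0.17). Pex11a, which acts in peroxisome proliferation, read 224.6 in the knockout and 196.2 in wild type (0.19), and its second probe set stayed under the floor on each array.

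Other genes of the pathway were read from lists of ketone body, mitochondrial, peroxisomal, Ppara target and peroxisome biogenesis genes, 86 in all, of which 76 could be read from their own probe sets and 67 were measured. Of these 67, 2 were at least 2-fold higher (2.99%, beside 3.27% of all measured genes) and 2 at least 2-fold lower (2.99%, beside 2.13%). At 1.5-fold, 11 were lower (16.4%, beside 5.23% of all measured genes) and 3 were higher (4.48%, beside 9.91%). Their median was -0.20, with 44 of 67 below 0. The remaining 10 listed genes were not analysed here.

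Peroxisomal oxidation genes outside the members were mostly lower on their brightest probe sets, with 15 of 16 below 0 and a median of -0.52. Of the 16, 1 was at least 2-fold lower (6.25%, beside 2.13% of all measured genes). Other measured probe sets were above 0 for Nudt19 (0.19), Pecr (0.13) and Acaa1a (a bound of 0.06). Those of Hsd17b4, Scp2, Abcd2, Acot4 and Nudt7 were below 0. Acox2, an acyl-CoA oxidase for branched chains and bile acid precursors, read 252.3 in the knockout and 1232 in wild type, a log2 difference of -2.29. Phyh, which starts the alpha-oxidation of phytanic acid, read 1323 in the knockout and 2585 in wild type (-0.97), and the thioesterase Acot4 read 196.0 and 344.1 (-0.81). Hsd17b4, the other peroxisomal bifunctional enzyme, read 1435 and 2129 (-0.57), with its other probe set at -0.12. The exception, named after its value was seen, was catalase (Cat), at 8513 in the knockout and 7054 in wild type (0.27), and its second probe set was lower, at 7042 and 8397. Peroxisome biogenesis genes, which build the organelle, stood near 0 on their brightest probe sets: 6 of 11 were above 0, the median was 0.02, and these values lay between -0.34 and 0.14. Those farthest from 0 were Pex16 (-0.34), Pex2 (-0.31) and Pex10 (-0.30). These are values of the brightest probe sets, and several genes were split: the other probe sets read 0.49 for Pex2 and 0.38 for Pex19, and 4 of Pex6, between -0.86 and -0.14, were below 0 where its brightest was at 0.09. Whether the oxidation and biogenesis lists differ could not be tested with these arrays.

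Further mitochondrial oxidation genes resembled the members in direction, with 12 of 18 below 0 and a median of -0.17. Acsm1, a medium-chain acyl-CoA synthetase, was the farthest from 0 and higher, at 456.2 in the knockout and 146.8 in wild type (1.64). Acad11, an acyl-CoA dehydrogenase, read 415.3 in the knockout and 732.2 in wild type (-0.82), and 313.7 and 710.9 on its other probe set (-1.18). Ivd, of leucine breakdown, read 738.8 and 1117 (-0.60), with its other probe set at -0.31. All 4 measured genes of the ketone body list were below 0, with a median of -0.37. Slc16a6, a ketone body exporter in zebrafish liver, read 613.4 in the knockout and 1056 in wild type (-0.78). Aacs, which uses acetoacetate for lipid synthesis, read 299.3 and 437.5 (-0.55), and the monocarboxylate carrier Slc16a1 read 10343 and 11849 (-0.20).

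Targets and partners of Ppara lay in both directions, with 10 of 18 above 0 and a median of 0.18. Fabp1, the liver fatty acid binding protein, read 6859 in the knockout and 18352 in wild type (-1.42), and 5166 and 11092 on its second probe set (-1.10). Vnn1, a pantetheinase induced by Ppara, was opposite, at 1354 in the knockout and 586.7 in wild type (1.21), with its other probe set at 1.51. Lpin1, a phosphatidate phosphatase and coactivator, read 175.9 in the knockout and 326.4 in wild type (-0.89) on the brighter probe set and 152.8 and 127.4 (0.26) on the other. Pdk4, a pyruvate dehydrogenase kinase of fasting, was dim and near level at 143.1 and 125.1 (0.19). Rxra, the DNA-binding partner of Ppara, read 518.7 in the knockout and 434.4 in wild type (0.26), and its other measured probe set read 341.0 and 383.9 (-0.17). The coactivator Ppargc1a read 214.1 and 183.5 (0.22) on its brightest probe set and lower on both other measured ones. This list mixes targets of Ppara with partners such as Rxra and Ppargc1a, so its count and median do not describe targets alone. Of the targets named, Fabp1 was lower and Vnn1 higher on each measured probe set. Whether targets as a group share a direction was not tested.

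Markers of cell types in the organ were read beside the members, and in bulk RNA fewer cells of a type cannot be told apart from less RNA per cell. Of 10 measured hepatocyte markers, 4 were at least 2-fold lower (40%, beside 2.13% of all measured genes). Of these markers, 9 were below 0 and the median was -0.45. Their summed signal was 160279 in the knockout and 202427 in wild type. Within that list albumin (Alb) was level, at 33186 in the knockout and 32396 in wild type, whereas Apoh read 2383 and 14470, and Cps1, of the urea cycle, 427.6 and 2580. Stellate and mesenchymal markers summed to 23476 in the knockout and 10305 in wild type, with a median of 1.503. Of these 12, 8 were past 2-fold upward (66.7%, beside 3.27% of all measured genes). Granulocyte markers summed to 67211 and 32617, with 5 of 10 past 2-fold upward (50%, beside 3.27%) and a median of 1.01. Their part in the members' values was not tested.

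Erythroid markers, of the blood-forming cells that fill the fetal liver, were near level in sum, at 115313 in the knockout and 123120 in wild type. Of the 9 genes, 7 were below 0, with a median of -0.10. Tfrc lay farthest from 0, at 12255 in the knockout and 18272 in wild type (-0.58). Medians were 0.25 for 9 macrophage, 0.40 for 10 endothelial and 0.74 for 6 cholangiocyte markers, with sums of 16295, 5819 and 3504 in the knockout and 12166, 4705 and 1437 in wild type. In the cholangiocyte list 5 of 6 were below the floor in wild type, so its median rests mostly on bounds. Its wild-type sum includes those readings as deposited. That list had 3 of 6 past 2-fold upward (50%, beside 3.27% of all measured genes). Krt19 was at least 8.72-fold, Cldn7 at least 6.34-fold and Epcam at least 2.42-fold higher in the knockout. Defining genes of other organs were mostly absent. Of 8 heart and skeletal muscle markers, 6 stayed under the floor on each array, and the summed signal of the other two was 237.9 in the knockout and 265.4 in wild type. Of 9 gut and pancreas markers, 5, among them Cdx2 and Pdx1, stayed under it as well, and the other 4 summed to 3529 in the knockout and 6105 in wild type with a median of -0.47. Most of that sum was Apob, which liver also expresses, at 2773 in the knockout and 5225 in wild type. Vil1, of epithelial brush borders, went the other way, at 259.6 in the knockout and 20.6 in wild type, at least 2.30-fold higher.

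**Figure D4:**
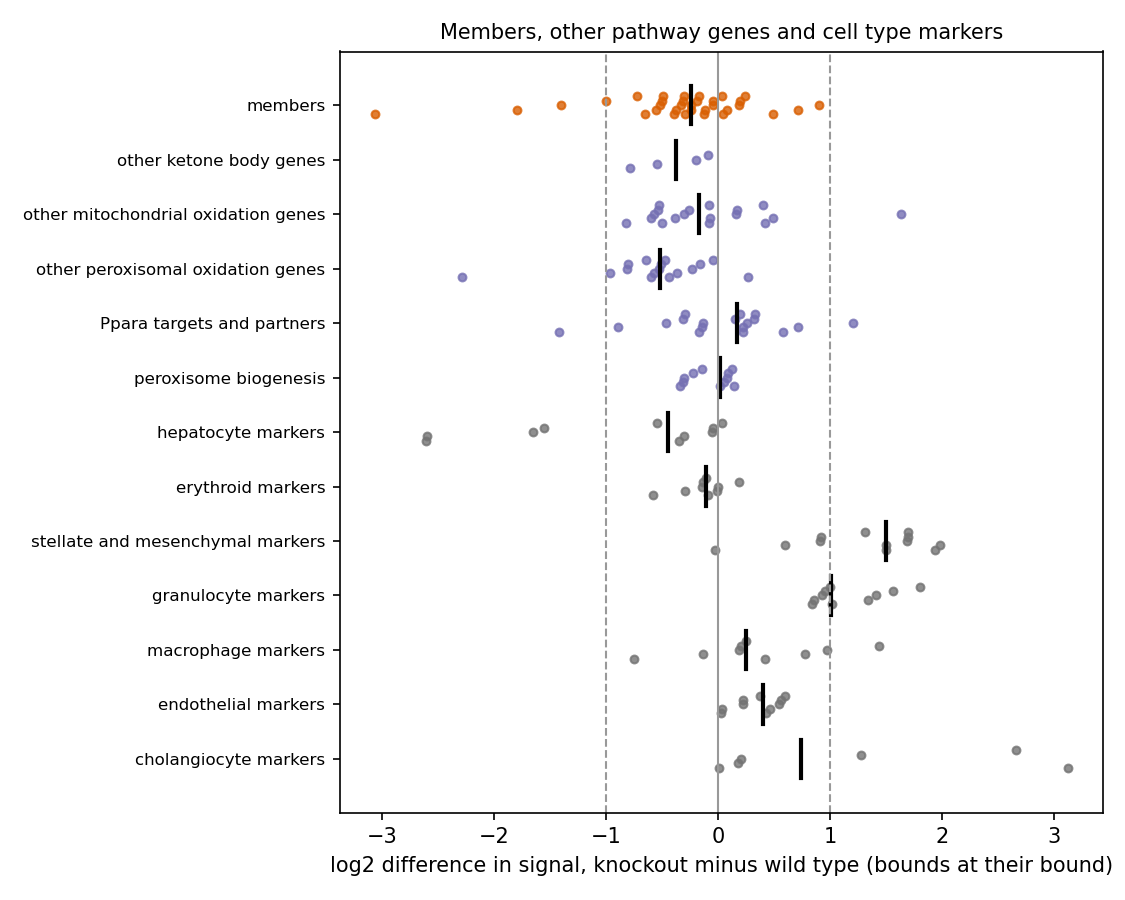
Log2 difference (knockout minus wild type) of each measured gene, as a point, for the members, the other pathway lists and the cell type markers, with the median of each list as a bar and dashed lines at 2-fold; muscle, gut and pancreas markers are not drawn. The members and the other peroxisomal oxidation genes lie mostly below 0, peroxisome biogenesis genes around 0, and mesenchymal and granulocyte markers above 0.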

How the data were processed

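One RNA sample of Prox1 f/f;Foxa3Cre and one of wild-type fetal liver were labelled with biotin and read on single-colour Affymetrix arrays, per the labels' protocols. What the authors deposited is 1 intensity per probe set, computed with MAS5 according to the submitters' processing notes, which name no version or scaling target. Values were used as deposited, since each array had a 2% trimmed mean of 500.0. Of 45101 probe sets, 64 controls were left out. The platform annotation gave 1 symbol for 34945, several for 932 and none for 9160. All 34 member identifiers matched the RefSeq table of GRCm38.p6, with 0 symbols changed.

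Lower signals were raised to the 50th percentile before log2. Genes were counted at 2-fold, and a gene below the floor on 1 array stands at its bound. Precision is limited by having 1 array per genotype, which allows no test. Members and lists were chosen with earlier results of these data known. All members were named; of each other pathway list the 3 genes with the largest difference were, along with a fixed set. Counting was tested on simulated data. Alternatives changed the floor, gene summary, scaling or size rule. Values were computed with pandas 2.3.3 and numpy 2.4.6 in Python 3.11.15, lowess came from statsmodels 0.14.6, and figures from matplotlib 3.10.9.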

Additional observations from a re-analysis of the deposited data

How the results depend on the processing

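The members' and other pathway genes' counts, the members' median and each member's difference were recomputed with the floor at the 30th or 60th percentile, with no floor, with the median or the mean over a gene's probe sets, and with quantile normalization, lowess correction or centring. List medians, marker lists and motif shares were not recomputed. Under these 8 alternatives the count of members at least 2-fold lower was 4 and of those at least 2-fold higher 0, and the members' median ran from -0.30 to -0.21. The size rule moved the counts: at 1.5-fold 2 members were higher (6.06%, beside 9.91% of all genes), and at 3-fold 2 were lower. Other pathway genes at least 2-fold higher numbered 2 as reported, 4 with the floor at the 30th percentile, 9 with no floor and 1 at 3-fold. Those at least 2-fold lower numbered 2 as reported, 4 with no floor, 11 at 1.5-fold (16.4%, beside 5.23% of all genes) and 1 at 3-fold. Without a floor, dim genes enter. The share of all genes past the size rule was not computed at 3-fold or under the 8 alternatives. Counts given there therefore have no share to be read against. Of 264 values of single members, 9 moved by more than the robust SD of their signal class, and 0 values past 2-fold changed sign. The sign of Acsl5 and of Hadh, both near 0, changed under 1 alternative each, to 0.0002 under quantile normalization and 0.16 as the mean over probe sets. Acaa1b ran from -3.77 to -2.31 with the floor. Ignoring the floor, 13 of 19 members with several probe sets had 1 sign throughout. No paired analysis was possible because each genotype has 1 array, and for the same reason no replicate could be left out. Bounds and dim probe sets limit what can be said of Fgf21, Pex11a and Acaa1b.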

Other observations

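Acyl-CoA thioesterase genes, grouped after their values were seen and not a full list of the family, ran in both directions. Acot2, Acot1, Acot4 and Acot3 follow each other in this order on chromosome 12 in the RefSeq table. In that order their log2 differences, knockout minus wild type, were 0.24, 0.90, -0.81 and -0.23, and that of Acot3 was small, with 21.3% of genes of like signal lower. Acot4 was lower on both of its probe sets, at 196.0 in the knockout and 344.1 in wild type, and at 114.9 and 214.8. Of the other two on the lists, the mitochondrial Acot13 read 2257 in the knockout and 2014 in wild type (0.16), and the peroxisomal Acot8 read 887.1 and 989.1 (-0.16). Close sequence between the copies makes the single values uncertain, and no test between genotypes was possible.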
